A study of Heliconius melpomene malleti and Heliconius melpomene plesseni with 96 samples.

Results

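This account describes 132 of the 12832 features measured on pupal wing and eye arrays of the butterfly Heliconius melpomene, namely the predicted genes whose signal in the wing stood highest on day 5. Expression was measured with 1-colour Cy3 arrays, 1 RNA sample per array, in 2 races that differ in wing colour pattern, Heliconius melpomene plesseni and Heliconius melpomene malleti. From each race the hindwing, the distal forewing, the proximal forewing and the eye were taken on days 1, 3, 5 and 7 of pupal life, with no treatment named. Each of the 32 combinations had 3 replicates, described as independent, which made 96 arrays. Each sample is named by its group and its own number, which is unique over the 96.

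The members were chosen on their own values. All intensities were put on a log2 scale and quantile-normalized over the 96 arrays, so that every array had the same distribution. On that common scale 25% of the values lay below 4.55, the median was 6.88 and 75% lay below 9.47. For each feature the median over the 18 wing arrays of each day was taken, and a predicted gene was kept where its day 5 median exceeded the median of every other day by at least 1.5. Features on the scaffolds HE667780, HE668478 and HE670865 were left out beforehand, so they could not become members. The rule allowed up to 150 features, and 132 passed, so its limit of 150 did not act. The distance to the next-highest day is called the gap. Wing values by day chose the members, and they are given below as a description with no test. Values in the eye were not used by the rule and were tested. Races and wing sections were tested too, on the same wing arrays that the rule had pooled. Differences between them are therefore not independent of the choice of members.

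In the pupa, the butterfly wing is a bilayered sheet of epithelium. Some of its cells become scale cells, which send out a flat extension, build it into a cuticular scale and fill it with pigment before the adult emerges. Scale building and pigmentation are transient programmes, so that many genes are used in the wing for a short part of pupal life. The pupal eye is an epithelium of the same animal that forms its facets, lenses and screening pigments over the same days. No feature carried a gene name, so functions of the members cannot be given and each is named by the position that the files give it on an assembly scaffold. The assembly version was not given in the sources used here.

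Each array was checked against its tissue label by its Spearman correlation with the other arrays of each tissue of that day. For 4 arrays the best match went against the label as wing or eye: replicates 55, 67, 69 and 73. Replicate 67, labelled malleti eye day 7, matched the wing, with 0.974 for the distal forewing and 0.873 for the eye. Replicate 69, labelled malleti proximal forewing day 7, matched the eye, with 0.980, against 0.870 for its labelled tissue. Replicates 55 and 73 were among 10 dim arrays with a median log2 intensity below 5.5 before normalization (replicates 5, 8, 16, 21, 32, 34, 42, 55, 60 and 73). Median intensity over all 96 arrays ranged from 22.98 to 376, and the number of arrays, not a read count, limits the precision here. With replicates 67 and 69 the dim arrays make 12, of which 7 have a wing label and 5 an eye label, and are called the doubted arrays. They stay in with their labels unless a value is said to be without them.

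Signal of the members in the wing was low on days 1 and 3, highest on day 5 and lower again on day 7. The median over the 132 members was computed on each array. Over the 18 wing arrays of day 1, this array median had a lowest, middle and highest value of 4.76, 5.08 and 6.42. For day 3 they were 4.94, 5.30 and 7.18. On day 5 the values were 8.18, 9.23 and 10.28, and on day 7 they were 6.02, 6.44 and 7.10. The lowest array of day 5 thus lay above the highest of each other day, as the rule had selected for. Set against the common distribution, the members as a group were below the median of all values on days 1 and 3 and near the 75% mark on day 5. In whole-tissue RNA, fewer cells of a type and less RNA per cell cannot be told apart.

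**Figure D1:**
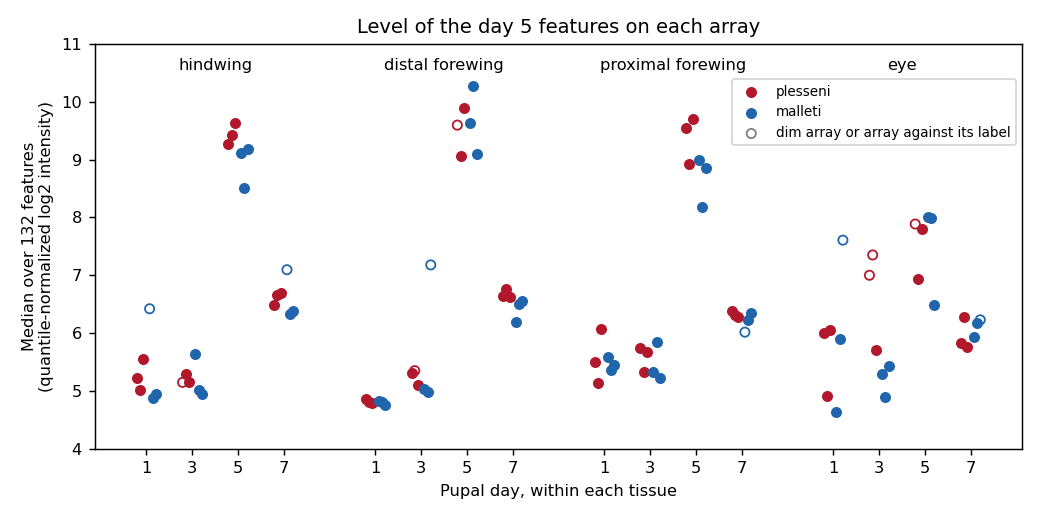
Median over the 132 members on each of the 96 arrays (vertical axis, quantile-normalized log2 intensity), by pupal day within each tissue, with plesseni in red and malleti in blue. Open circles are the 12 doubted arrays; all 18 wing arrays of day 5 lie between 8.18 and 10.28, and the 6 eye arrays of day 5 between 6.49 and 8.01.

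Several dim arrays stood above the others of their group in this plot. In the wing, malleti distal forewing day 3 replicate 55 was at 7.18 and malleti hindwing day 1 replicate 5 at 6.42. In the eye, malleti day 1 replicate 73 was at 7.61, and plesseni day 3 replicates 60 and 8 were at 7.35 and 7.00. Without the doubted arrays, the highest wing array was at 6.07 on day 1 and at 5.84 on day 3.

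The difference of day 5 minus day 3 in the wing had a median of 3.51 on the log2 scale over the members, or 11.4-fold, and ranged between 1.61 and 8.00. The difference of day 5 minus day 7 had a median of 2.38, or 5.21-fold, and a highest value of 7.27. The gap itself had a lowest, median and highest value of 1.51, 2.16 and 6.57. Day 7 was the next-highest day for 93 members, day 1 for 20 and day 3 for 19. The commonest shape was a return to the early level: in 80 members day 7 lay within 1 log2 unit of the higher of days 1 and 3. In 43 members day 7 stayed at least 1 unit above that level, and in 9 it lay at least 1 unit below it. Every wing array of day 5 exceeded every other wing array in 9 members, which were the only such features among all 12832 (0.0701%), a count fixed in part by the rule.

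The member with the widest gap was HE669301 108681 to 113035, at 6.57. In the wing its lowest, median and highest values were 2.49, 3.51 and 5.42 on day 1, 2.81, 3.37 and 5.38 on day 3, 9.62, 11.37 and 12.91 on day 5, and 3.74, 4.80 and 5.76 on day 7. It lay among the dimmest 25% of values on days 1 and 3 and among the brightest 25% on day 5, with more than 3 log2 units between its lowest day 5 array and every other wing array. HE670583 330546 to 341058 had a gap of 6.05 but scattered widely. Its wing medians were 4.93, 4.70, 10.98 and 4.80 on days 1, 3, 5 and 7, while its day 5 arrays ran between 6.17 and 13.49 and 1 array of day 1 reached 11.79.

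HE672020 49885 to 57580 had wing medians of 6.07, 5.84, 12.14 and 6.52 on the 4 days. Its day 5 arrays, between 10.30 and 13.26, did not overlap those of other days, of which the highest was 10.09. The other 3 of the top 6 had a higher base and ended near the top of the scale. HE671347 295964 to 298667, measured by 1 probe, had medians of 7.02, 6.18, 13.83 and 8.44. HE671375 277985 to 284551 had medians of 7.17, 7.15, 13.85 and 8.58, and its day 5 arrays, at 12.00 and above, did not overlap the others. HE671115 385231 to 386565 had medians of 7.79, 7.16, 13.87 and 8.64, with 12.48 to 14.25 on day 5 and up to 12.94 on day 3.

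**Figure D2:**
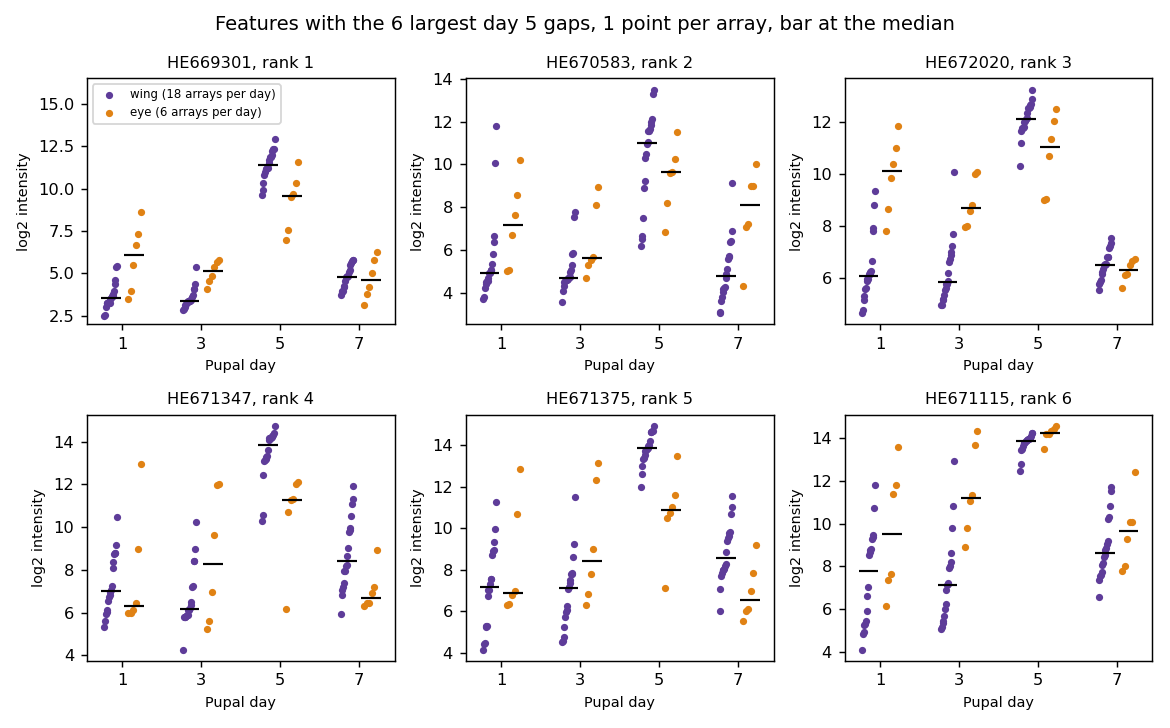
Quantile-normalized log2 intensity on each array (points, bar at the median) by pupal day for the 6 members with the widest gaps, with wing arrays in purple (18 per day) and eye arrays in orange (6 per day). In the wing all 6 are highest on day 5, and in the eye the medians of all 6 are highest on day 5 too.

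At the other end of the list, the last members inside the rule were HE670522 27486 to 31085 and HE671448 413018 to 419796, each with a gap of 1.51. The first features outside it, HE671186 269338 to 277927 and HE668246 133140 to 134101, had gaps of 1.49 and the same shape. HE671186, for example, had wing medians of 3.48, 3.43, 5.73 and 4.24 on days 1, 3, 5 and 7. The edge of the list is therefore one of degree, and on the deposited scale without quantile normalization the rule kept 97 features, 91 of them shared.

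The peak on day 5 was also seen in nearly all members by section and by race. These medians come from parts of the same wing arrays that the rule used. The counts follow in large part from the rule and are given as a description. The day 5 median was the highest of the 4 days for all 132 members in the hindwing, for all 132 in the distal forewing and for 130 in the proximal forewing. It was the highest for 123 members over the plesseni wing arrays and for 131 over the malleti wing arrays. Of the 9 exceptions in plesseni, 4 were highest on day 1, 1 on day 3 and 4 on day 7. With 6 combinations of race and section, 97 members peaked on day 5 in all of them, 21 in 5, 12 in 4 and 2 in 3.

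**Figure D3:**
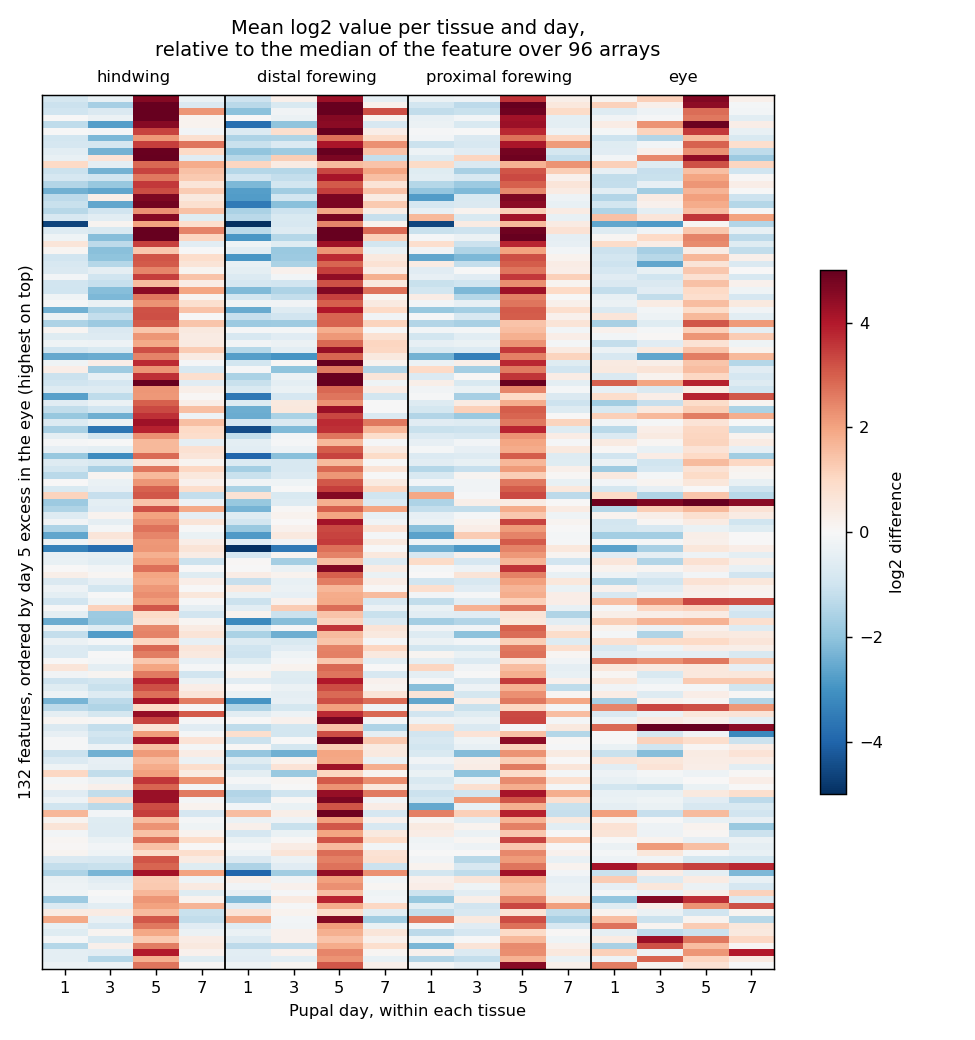
Mean log2 value of each of the 132 members (rows) in each tissue and day (columns), relative to the median of that member over the 96 arrays. Red is higher and blue lower, with the colour limited at 5 log2 units on either side, and rows are ordered by the day 5 excess in the eye, highest on top; the day 5 columns of the 3 wing sections are red in nearly every row, while in the eye day 5 stands out from the other days in the upper rows.

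The members lay on 114 scaffolds: 98 scaffolds held 1 member, 15 held 2 and 1 held 4. Members that follow each other directly on a scaffold made 12 pairs, which took in 23 members, or 17.4% of the list. The same share was 19.3% of the 150 features that peaked on day 3 in the wing and 16.2% of the 68 that peaked on day 7. In 2 of the pairs the predicted genes overlapped. These were HE671070 92459 to 94357 with 93544 to 94249, and HE672075 1120254 to 1183636 with 1137629 to 1137702, and whether their probes share transcripts is not given. Only 1 run had 3 neighbours, on HE671450 between 48860 and 64946, and it is described with the races below. The median span of the members was 3896 bases, against 5106 for all predicted genes. Of the 132, 122 were measured by 9 probes and 2 by 1 probe.

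Most members had their highest eye median on day 5 too. The eye arrays took no part in the choice of members. The eye median was highest on day 5 for 90 of the 132 members (68.2%), against 18.6% of all 12832 features. It was highest on day 1 for 16 members and on days 3 and 7 for 13 each. Without the doubted arrays the count was 96 (72.7%), against 17.9% of all features. The shares were close in lists made by the same rule for other days: the eye peaked on day 3 for 102 of 150 features that peaked on day 3 in the wing, and on day 7 for 47 of 68 that peaked on day 7. Taken by race, the eye peaked on day 5 for 53 members in plesseni and for 74 in malleti, with 3 arrays per day in each. In plesseni 39 members peaked on day 3, where replicates 8 and 60 are doubted, as is replicate 16 of day 5. In malleti the doubted eye arrays are replicate 73 of day 1 and replicate 67 of day 7. The races were not tested against each other in the eye, and no share over all features was computed by race.

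The array median over the members in the eye had a lowest, middle and highest value of 4.63, 5.95 and 7.61 on day 1, 4.90, 5.57 and 7.35 on day 3, 6.49, 7.84 and 8.01 on day 5, and 5.76, 6.06 and 6.27 on day 7. Day 5 overlapped days 1 and 3 only through the dim replicates 73, 60 and 8. Without the doubted arrays the ranges were 4.63 to 6.05 on day 1, 4.90 to 5.71 on day 3, 6.49 to 8.01 on day 5 and 5.76 to 6.27 on day 7, which do not overlap day 5.

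On day 5 of the eye, 43 members were higher and 1 was lower than on day 1 (limma, adjusted p under 0.05 over all features), where 8.29% of all features were called higher and 9.98% lower. The median change of the members was 1.09 on the log2 scale, against -0.09 over all features. Against day 3, 43 members were higher and 0 lower, with 6.99% and 8.05% of all features called, and the median change was 0.98. Against day 7, 20 members were higher and 0 lower, with 1.1% and 1.05% of all features called, and the median change was 0.95. The members called higher were thus 32.6%, 32.6% and 15.2% of the list, against 8.29%, 6.99% and 1.1% of all features. At an unadjusted p under 0.05, 65, 60 and 55 members passed in either direction, which is 49.2%, 45.5% and 41.7% of the list, beside 29.9%, 29.5% and 23.1% of all features. Without the doubted arrays the counts were 62 higher and 1 lower, 51 higher and 1 lower, and 21 higher and 0 lower.

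The count against day 7 depended on single arrays. It was 11 without malleti eye day 5 replicate 15, 40 without plesseni eye day 5 replicate 38 and 35 without malleti eye day 5 replicate 89. Slides were inferred from the names of the deposited array data, not from the sample labels. Where days 5 and another day shared a slide, the median change of the members was above 0 on 3 of 3 slides against day 1, on 4 of 4 against day 3 and on 3 of 3 against day 7. Some of these slides rest on doubted arrays: replicates 16 and 73 against day 1, 8 and 16 against day 3, and 67 against day 7.

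At least 1 of the 3 eye comparisons was called higher for 61 members (12.1% of all features), and 71 members were called higher in none. All 3 were called for 7 members (0.335% of all features). Besides HE669301 and HE671115 385231 to 386565, these were HE670118 33290 to 34486, HE671243 39251 to 40048 (1 probe), HE667799 84437 to 92654, HE669602 7360 to 8671 and HE671617 708227 to 718781, the last 5 named after their values were seen. In HE667799 the eye was as high as the wing on day 5, with eye values of 9.13 to 11.29 and a median of 9.57, beside a wing median of 9.53.

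Of the members called against day 1, HE669282 20328 to 25292 had the largest rise. Its eye values on day 5 had a lowest, median and highest of 7.66, 11.29 and 11.98, against 3.89, 4.30 and 7.44 on day 1, a log2 change of 5.66 ± 0.85 (SE; limma, adjusted p = 6.56e-07). The ranges did not overlap, but the eye of day 3 was as high, with a median of 11.82, while the wing of day 3 had a median of 6.56. HE669886 17566 to 24304 had 6.39, 8.37 and 8.86 on day 5, against 2.42, 3.14 and 4.88 on day 1 (log2 change 4.74 ± 0.42, SE; limma, adjusted p = 1.42e-13). On day 7 its eye median was 7.36, between those of days 1 and 5.

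The single member called lower, HE671903 108764 to 112322, had 5.05, 5.58 and 7.36 on day 5 of the eye, against 4.97, 7.48 and 9.24 on day 1 (log2 change -1.46 ± 0.54, SE; limma, adjusted p = 0.0493). These ranges overlap, and the call was kept in 39 of 106 alternatives. The difference was negative on 2 of 3 slides and 0.40 on the other. In the wing the same feature had medians of 4.14, 3.88, 7.16 and 3.97 on days 1, 3, 5 and 7.

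Against day 3, HE671880 4369 to 7163 rose most. Its eye values were 10.27, 11.92 and 12.26 on day 5, against 5.26, 6.28 and 9.17 on day 3 (log2 change 5.15 ± 0.53, SE; limma, adjusted p = 3.84e-11). HE669301, the widest gap in the wing, had 6.95, 9.58 and 11.58 on day 5, against 4.05, 5.10 and 5.75 on day 3 (log2 change 4.22 ± 0.52, SE; limma, adjusted p = 1.2e-08). Neither overlapped between these days.

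Against day 7, 2 features of scaffold HE671115 that are not neighbours led. HE671115 207563 to 212194 had 6.54, 11.17 and 12.71 on day 5, against 3.21, 3.94 and 4.85 on day 7 (log2 change 6.24 ± 0.90, SE; limma, adjusted p = 2.28e-06). HE671115 385231 to 386565 had 13.49, 14.25 and 14.54 on day 5, against 7.78, 9.66 and 12.40 on day 7 (log2 change 4.59 ± 0.95, SE; limma, adjusted p = 0.00333). Both were clear of day 7 on every day 5 array, and the second had day 5 medians of 14.25 in the eye and 13.87 in the wing.

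Set side by side on day 5, the wing median was above the eye median for 114 members and below it for 18. The difference of wing minus eye had a median of 2.04, was at least 1 for 98 members and at most -1 for 8. It used the wing values of the rule and is given without a test. The highest were HE668569 56290 to 63771, with a wing median of 11.05, an eye median of 6.08 and a difference of 4.96, and HE671497 159574 to 163410, with 14.88 in the wing, 10.17 in the eye and a difference of 4.72. Neither had an eye comparison called, and both had their highest eye median on day 3.

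The lowest had a higher median in the eye than the wing on each of the 4 days. HE672037 118065 to 124201 had a wing median of 6.90 and an eye median of 11.49 on day 5, a difference of -4.59. HE671797 26025 to 28558 had 7.19 in the wing and 11.28 in the eye, a difference of -4.08, with eye medians between 11.28 and 11.44 on all 4 days. Replicates 69 and 67 carried the opposite tissue's level in both. In HE672037, replicate 69, which has a forewing label, was at 11.95, where the next wing array of day 7 was at 7.31. Replicate 67, which has an eye label, was at 4.27, where the next eye array of day 7 was at 11.24. In HE671797 these arrays were at 11.07 and 6.96.

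A small number of members were called for a difference between the races on single days or in a step between days. In what follows a difference is plesseni minus malleti over the 9 wing arrays of each race and day, 3 from each section. The rule had pooled these arrays by day, so a member could pass while 1 race peaked on another day. In plesseni, HE671580 and HE670563 peaked on day 7, and the 3 neighbours on HE671450 on day 1. Race and step differences of such members are set in part by the rule. The sources used here do not give whether sections came from the same pupae. If some did, the arrays are not all independent and the p-values over them are too small. Within single sections, with 3 arrays per race, 1 member was called on day 5, in the hindwing. Every race difference named below kept its sign in each of the 3 sections. Counts over slides compare the wing arrays that a slide held, often of different sections in the 2 races. On day 5, for example, 1 slide held plesseni distal forewing replicate 42 and malleti hindwing replicate 39. The slide counts therefore do not separate race from section.

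On day 5, 7 members were higher and 3 lower in plesseni (limma, adjusted p under 0.05), where 0.483% of all features were called higher and 0.32% lower. At an unadjusted p under 0.05 the number was 41 (31.1%), beside 9.79% of all features. On the deposited scale and after centring on array medians 4 were higher and 2 lower in each case. The count in both directions was 4 without the dimmest 25% of features and 1 in a fit to the compared groups alone. It was 9 without the doubted arrays, 6 without plesseni proximal forewing replicate 18, malleti hindwing replicate 39 or malleti distal forewing replicate 87, 16 without plesseni distal forewing replicate 86 and 18 without plesseni proximal forewing replicate 62. The array median over all members differed less than its spread: it was 8.92 to 9.90 in plesseni and 8.18 to 10.28 in malleti.

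HE670563 77830 to 83011 was lower in plesseni on day 5. Its lowest, median and highest wing values were 4.42, 5.66 and 9.10 in plesseni, against 8.26, 9.30 and 9.88 in malleti, a log2 difference of -3.20 ± 0.47 (SE; limma, adjusted p = 1.43e-05). All but 1 of the 9 plesseni arrays, replicate 62, lay below every malleti array, and the difference was negative on 6 of 6 slides that held both. The section values were -4.28 in the hindwing, -3.83 in the distal forewing and -1.48 in the proximal forewing, of which the hindwing alone passed (limma, adjusted p = 0.00967).

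HE671266 292072 to 292984 was also lower in plesseni, with 3.24, 4.12 and 8.68, against 6.27, 8.32 and 9.05 in malleti (log2 difference -3.04 ± 0.48, SE; limma, adjusted p = 5.7e-05). The plesseni arrays fell apart into 7 between 3.24 and 4.20, inside the range of 2.62 to 4.62 that plesseni wings had on the other days, and 2 in the malleti range: proximal forewing replicate 18 at 8.23 and distal forewing replicate 42 at 8.68. The difference was negative on 5 of 6 slides and 0.46 on the other, where the plesseni array was the doubted replicate 42. Without the doubted arrays the difference was -3.58 (limma, adjusted p = 8.75e-07).

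In the other direction, HE671551 59946 to 63554 had 7.25, 10.57 and 13.01 in plesseni, against 6.60, 8.37 and 10.03 in malleti (log2 difference 2.47 ± 0.46, SE; limma, adjusted p = 0.00104). HE671748 41479 to 44601 had 4.36, 8.55 and 11.24 in plesseni, against 4.66, 6.11 and 7.31 in malleti (log2 difference 2.31 ± 0.49, SE; limma, adjusted p = 0.00577). Plesseni was higher on 5 of 6 slides in each, and the other slide gave -1.86 in HE671551 and -1.12 in HE671748. The same 4 plesseni arrays were the highest in both, namely proximal forewing replicates 18 and 64 and distal forewing replicates 42, a doubted array, and 88. They lay at 12.07 or above in HE671551 and at 10.25 or above in HE671748, clear of every malleti array, while the other 5 plesseni arrays lay at 7.25 to 10.57 and at 4.36 to 8.55. Both members overlapped between races, both scattered more in plesseni, and both differed by less than 1 log2 unit between race medians on the other days. Without the doubted arrays the day 5 differences were 2.15 in HE671551 and 1.94 in HE671748 (limma, adjusted p = 0.00575 and 0.0304).

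**Figure D4:**
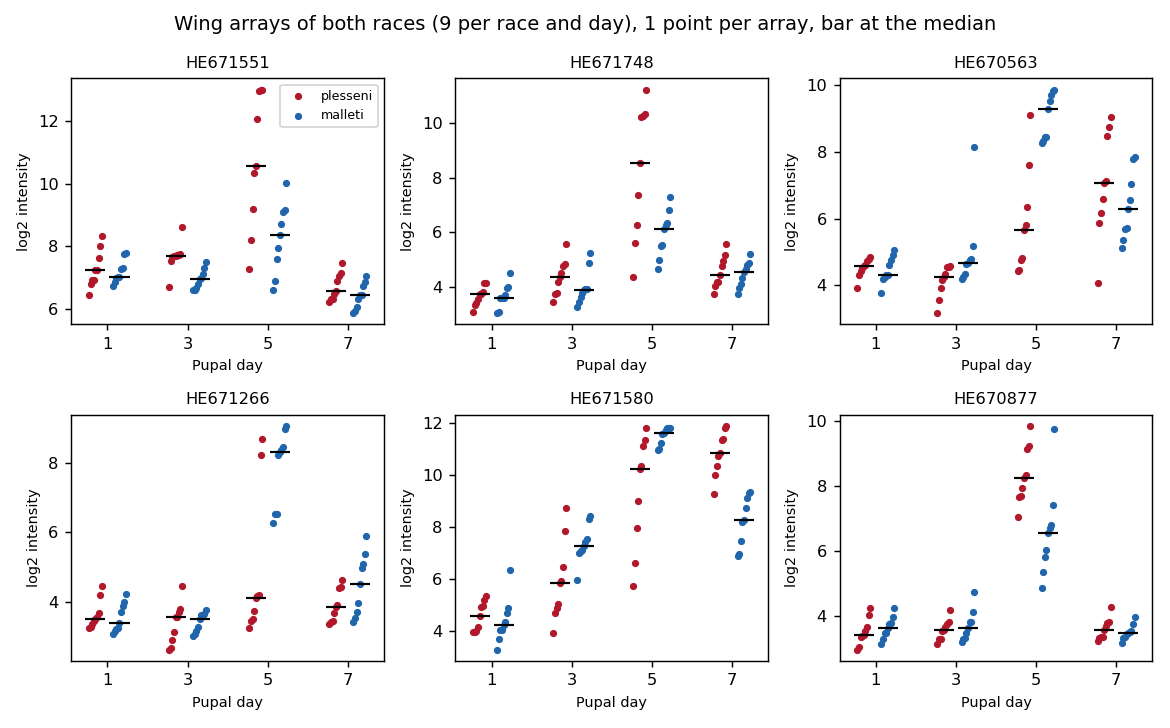
Quantile-normalized log2 intensity on each wing array (points, bar at the median) by pupal day for the 6 members named for a race difference on day 5 or in the step from day 5 to day 7, with plesseni in red and malleti in blue, 9 arrays per race and day. In HE670563 and HE671266 most plesseni arrays of day 5 lie below the malleti arrays, the plesseni median of HE671580 is the lower on day 5 and the higher on day 7, and the day 5 medians of HE670877, HE671551 and HE671748 are higher in plesseni.

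Whether the step between days differed by race was tested directly. For the rise between day 3 and day 5, 1 member was called with a larger rise in plesseni and 5 with a smaller one (limma, adjusted p under 0.05), where 0.226% and 0.429% of all features were called. At an unadjusted p under 0.05, 40 of the 132 members passed, beside 1349 of all 12832 features. On the deposited scale the adjusted counts were 0 and 2, and after centring 0 and 3. HE670877 221302 to 225008 rose more in plesseni, by a log2 difference of 1.89 ± 0.38 (SE; limma, adjusted p = 0.00368). Its wing values on day 5 were 7.05, 8.26 and 9.85 in plesseni, against 4.86, 6.56 and 9.76 in malleti, while on the other 3 days the medians of both races lay between 3.43 and 3.65. It also fell more by day 7 in plesseni, by -1.67 ± 0.38 (SE; limma, adjusted p = 0.0283). This second call was lost without any 1 of replicates 18, 39, 61, 63, 71, 87, 88 and 96, and it was kept in 5 of 12 other settings. The first call, for the rise, was kept whichever single array was left out, but in only 5 of 11 other settings. The eye of day 5 stayed low in this member, between 3.29 and 5.21.

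For the step between day 5 and day 7, 2 members had a higher and 1 a lower value in plesseni, where 0.14% and 0.0857% of all features were called. At an unadjusted p under 0.05, 37 of the 132 members passed, beside 956 of all 12832 features. With the deposited scale or with centring on array medians the adjusted counts were 2 and 0. HE671580 20053 to 27656 had its highest median on day 7 in plesseni and on day 5 in malleti. Its plesseni wing values were 5.72, 10.24 and 11.79 on day 5 and 9.26, 10.83 and 11.86 on day 7, against 10.97, 11.59 and 11.81 on day 5 and 6.88, 8.28 and 9.34 on day 7 in malleti. Days 5 and 7 overlapped in plesseni and did not in malleti, and they were not tested against each other within a race. The difference of the steps was 4.74 ± 0.80 (SE; limma, adjusted p = 0.00107), and it was 3.85, 4.38 and 5.99 in the hindwing, distal forewing and proximal forewing. Without the doubted arrays, which include malleti day 7 replicates 21 and 69, the difference of the steps was 3.90 (limma, adjusted p = 0.00526). HE670563, lower in plesseni on day 5, had medians of 7.08 in plesseni and 6.30 in malleti on day 7, and its steps differed by 3.84 ± 0.66 (SE; limma, adjusted p = 0.00107). With these array numbers 0 members passed for either step within 1 section alone.

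On day 7, 1 member was higher and 1 lower in plesseni, where 0.171% and 0.109% of all features were called. At an unadjusted p under 0.05, 19 members (14.4%) passed, beside 4.52% of all features. HE671580 was higher, by 2.59 ± 0.56 (SE; limma, adjusted p = 0.0145), and was higher on 7 of 7 slides. All 9 plesseni arrays were at 9.26 or above and all malleti arrays at 9.34 or below. The malleti arrays include the doubted replicates 21 and 69, of which replicate 69 matched the eye. Without the doubted arrays the difference was 2.21 (limma, adjusted p = 0.0452). HE670519 168965 to 179025 was lower, with 3.30, 4.22 and 7.69 in plesseni, against 5.85, 6.62 and 8.74 in malleti (log2 difference -1.87 ± 0.44, SE; limma, adjusted p = 0.0315), and was lower on 7 of 7 slides. Leaving out 1 of 12 single arrays ended 1 of these 2 calls: HE671580 without malleti hindwing replicate 21 or malleti distal forewing replicate 93, and HE670519 without any of 10 others. On the deposited scale 0 members were called.

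On day 3, before the peak, 3 members were higher and 3 lower in plesseni, where 0.865% and 0.475% of all features were called. Without the doubted arrays 9 were higher and 2 lower, on the deposited scale 3 and 0, and after centring on array medians 4 and 2. At an unadjusted p under 0.05, 19 members (14.4%) passed, beside 11.2% of all features. HE670772 69715 to 76259 was lower, with 5.52, 6.44 and 8.82 in plesseni, against 8.52, 9.27 and 9.77 in malleti (log2 difference -2.27 ± 0.42, SE; limma, adjusted p = 0.000391), on 7 of 7 slides. By day 5 both races were at the same level, with medians of 11.69 in plesseni and 11.72 in malleti. HE670522 27486 to 31085 was lower too, with 5.80, 6.74 and 7.70 in plesseni, against 6.32, 8.17 and 9.49 in malleti (log2 difference -1.63 ± 0.37, SE; limma, adjusted p = 0.00647), on 6 of 7 slides, with 1.38 on the other. HE671535 107540 to 108085 was higher, with 10.53, 13.62 and 13.85 in plesseni, against 7.72, 11.09 and 13.34 in malleti (log2 difference 2.52 ± 0.54, SE; limma, adjusted p = 0.00314), on 6 of 7 slides, with -2.40 on the other. The malleti array on that other slide was the doubted replicate 55.

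The run of 3 neighbours on HE671450 was called for race on day 1, the day on which all 3 had their highest median in plesseni. Its members are HE671450 48860 to 51990, 57098 to 59615 and 61477 to 64946, and the other member of the scaffold lies apart at 630647 to 635165. On day 1, a comparison added after the values were seen, 7 members were higher and 0 lower in plesseni, where 1.28% and 0.468% of all features were called, and all 3 of the run were among them. The overlapping pair on HE671070, 92459 to 94357 and 93544 to 94249, was among them too. At an unadjusted p under 0.05, 21 members (15.9%) passed, beside 10.7% of all features. The first neighbour had 9.64, 11.82 and 13.18 in plesseni on day 1, against 6.44, 8.20 and 9.48 in malleti (log2 difference 3.77 ± 0.72, SE; limma, adjusted p = 0.000533). The second had 8.74, 10.76 and 12.08 in plesseni, against 5.18, 5.90 and 7.79 in malleti (log2 difference 4.30 ± 0.77, SE; limma, adjusted p = 0.000192). In both, no plesseni array overlapped a malleti array, and plesseni was higher on 7 of 7 slides. The third had medians of 9.33 in plesseni and 5.62 in malleti, with a difference of 3.44. The number called on day 1 was 4 without any 1 of plesseni distal forewing replicate 26, plesseni hindwing replicate 50, malleti distal forewing replicate 53 or plesseni proximal forewing replicate 78.

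On day 3 the first neighbour was still higher in plesseni, with 5.35, 9.05 and 12.13, against 4.51, 6.06 and 8.55 in malleti (log2 difference 3.16 ± 0.72, SE; limma, adjusted p = 0.00648), a call lost without plesseni hindwing replicate 36. It was higher on 6 of 7 slides, with -1.94 on the other, where the malleti array was the doubted replicate 55. The plesseni arrays of day 3 were spread over nearly 7 log2 units. Hindwing replicate 36, distal forewing replicate 12 and proximal forewing replicates 84 and 10 lay at 11.29 or above, and hindwing replicates 58 and 32 and distal forewing replicate 34 lay at 6.99 or below. The same 4 arrays were the highest plesseni arrays of day 3 in both other neighbours of the run, at 9.81 or above and at 8.82 or above. On day 5 the 3 medians were 10.94, 10.37 and 8.87 in plesseni, against 12.06, 11.62 and 10.77 in malleti, and on day 7 they were 6.26, 5.39 and 4.67 in plesseni, against 6.03, 6.58 and 4.42 in malleti. The step between days 3 and 5 differed, plesseni minus malleti, by -3.93 ± 1.02 (SE; limma, adjusted p = 0.0435) in the first and -3.79 ± 0.99 (SE; limma, adjusted p = 0.0458) in the third, calls that were lost without any 1 of 21 and 35 arrays.

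**Figure D5:**
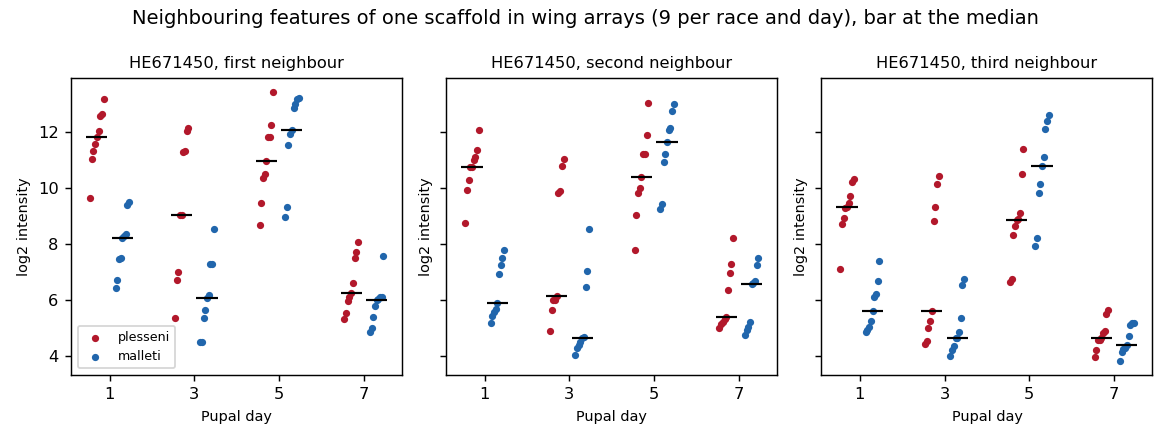
Quantile-normalized log2 intensity on each wing array (points, bar at the median) by pupal day for the 3 neighbouring members of scaffold HE671450, in their order on the scaffold, with plesseni in red and malleti in blue, 9 arrays per race and day. All 3 are high on day 1 in plesseni with medians of 11.82, 10.76 and 9.33, against 8.20, 5.90 and 5.62 in malleti, and both races are high on day 5 and low on day 7.

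Between wing sections on day 5, 0 members were called for distal against proximal forewing, as were 0 of all 12832 features (limma). At an unadjusted p under 0.05, 12 members (9.09%) passed, beside 3.11% of all features. The distal section had the higher value for 110 of 132 members, beside 50.3% of all features, with a median difference of 0.46 on the log2 scale. The array median over members was 9.06 to 10.28 in the distal and 8.18 to 9.70 in the proximal forewing, ranges that overlap. On the 2 slides that held both sections the median difference had opposite signs. It was 0.66 where both arrays were malleti, distal replicate 41 and proximal replicate 85. It was -0.40 between malleti distal replicate 87 and plesseni proximal replicate 64, where section and race cannot be told apart. Leaving out plesseni proximal forewing replicate 18, plesseni distal forewing replicate 86 or malleti distal forewing replicate 87 gave 1 called member. On day 1, in a description made after the values were seen, the order was the reverse: the 6 distal arrays lay at 4.76 to 4.86 and the 6 proximal arrays at 5.14 to 6.07. For hindwing against forewing on day 5, 0 members were called, beside 0.00779% of all features higher and 0 lower. At an unadjusted p under 0.05, 12 members (9.09%) passed, beside 4.80% of all features. The hindwing was higher for 59 of 132 members, beside 45.8% of all features, with a median difference of -0.08. This sign depended on the scale: on the deposited scale the median difference was 0.47, beside 0.57 for all features.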

How the data were processed

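The authors deposited a linear intensity for every feature of each array. Per the submitters' processing notes it was made with RMA, with no version named. Per the labels, RNA was isolated with TRIzol and RNeasy columns and labelled with Cy3. The log2 of each intensity was quantile-normalized over the 96 arrays in R (version 4.3.3) with limma (version 3.58.1). A model of 32 group means was fitted to all arrays (64 residual degrees of freedom), contrasts were tested with two-sided eBayes statistics, and p-values were adjusted by Benjamini-Hochberg over all 12832 features, with a threshold of 0.05. Fold changes and errors are on the log2 scale. The fit was also run on simulated data with independent normal noise on every array. That run held no exchanged labels, dim arrays or shared animals, so it could not test for these.

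The members, comparisons and named features were chosen with earlier results of these data known. The rule was expected to give 150 members and gave 132. Named are the 6 widest gaps, 2 features on either side of the rule's edge, per comparison at most 2 called members in each direction, runs of 3 neighbours, and the 2 highest and 2 lowest members in wing minus eye. The other members called for race in a day step are named among the results marked for a closer look. Race on day 1 and race within 1 section were added after the data were seen. Alternatives were the deposited scale, median centring, slide as a block, each detector gain alone, a filter on the dimmest 25% of features, trend and robust eBayes, array weights, a fit to the compared groups alone, and arrays left out. Slide and detector gain were inferred from the names of the deposited array data, not from the sample labels. Of the 12832 identifiers, 0 were found in the supplied gene table, and no sequence of the features is used here. Whether replicates came from separate animals is not given beyond the word independent, so p-values measure the spread between these samples.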

Additional observations from a re-analysis of the deposited data

Results flagged for a closer look

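The change of the members between days differed between races in 9 tests that passed (limma interaction of race and day over the wing arrays, adjusted p under 0.05 over all features). The rule chose the members on these wing arrays by day, so the tests are not independent of that choice. The groups of this series hold 3 arrays each, so single arrays were not tested as outliers. For the step between day 3 and day 5, plesseni minus malleti, the log2 difference was 1.89 for HE670877 221302 to 225008, -3.01 for HE671266 292072 to 292984, -3.20 for HE671616 4730 to 8086, -3.93 for HE671450 48860 to 51990, -3.79 for HE671450 61477 to 64946 and -3.07 for HE671535 107540 to 108085. For the step between day 5 and day 7, it was -1.67 for HE670877, 4.74 for HE671580 20053 to 27656 and 3.84 for HE670563 77830 to 83011. In HE671616, named here after its values were seen, the wing medians of plesseni were 8.21 on day 3 and 11.53 on day 5, against 6.55 and 12.49 in malleti (limma, adjusted p = 0.0457 for the step).

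The 9 differences kept their sign within each of the 3 wing sections. Within single sections none of the 9 passed, with 3 arrays per race and day, as the lowest adjusted p of any was 0.175, for HE670563 in the hindwing. Of the 9, the differences of HE671580 and HE670563 between days 5 and 7 were kept in 106 of 109 alternatives, the 3 exceptions being the sections taken alone.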

How the results depend on the processing

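Of the 25 differences of single members that were recomputed under every alternative, 0 changed sign, whereas the members' median of hindwing minus forewing was -0.08 in the report and 0.47 on the deposited scale. No paired analysis was possible because each replicate number occurs once in the series. Counts of members called that moved by over 1.5 times are given here; for none of them was the cause tested. The order is eye day 5 against days 1, 3 and 7 (main counts 44, 43 and 20), then race in the wing on days 1, 3, 5 and 7 (7, 6, 10 and 2), then race in the steps from day 3 to 5 and from day 5 to 7 (6 and 3). On the deposited log2 scale, eye against day 3 gave 65 and against day 7 gave 10, race gave 3 on day 3, 6 on day 5 and 0 on day 7, and the first step gave 2. Centring on array medians gave 4 for race on day 1, 6 on day 5 and 3 for the first step. Slide as a block gave 31 for eye against day 7. Leaving out the dimmest 25% of features gave 4 for race on day 5 and 2 for the first step. Arrays of gain 440 alone gave 27, 9 and 5 for the eye, 2 for race on day 1, 1 on day 7 and 1 for distal against proximal forewing (main 0). Arrays of gain 460 alone gave 3 for eye against day 3, 0 against day 7 and 0 for race on day 1. Array weights gave 86 for eye against day 1, 57 against day 7, 52, 31 and 9 for race on days 1, 3 and 7, 23 and 9 for the steps and 4 for hindwing against forewing (main 0). A fit to the compared groups alone gave 24, 18 and 8 for the eye, 15, 1, 1 and 1 for race and 0 for the first step. Without the 12 doubted arrays, race gave 11 on day 3 and 11 for the first step. Race within the hindwing, the distal forewing and the proximal forewing alone gave 0, 0 and 1 on day 1, 0, 0 and 2 on day 3, 1, 0 and 0 on day 5, and 0 in each on day 7 and for both steps. The deposited scale moved the median of all features by over 0.1 in 8 contrasts, to 0.0534, 0.763 and -0.247 for eye against days 1, 3 and 7, 0.136 and -0.156 for race on days 5 and 7, -0.312 for the second step, -0.128 for distal against proximal forewing and 0.57 for hindwing against forewing. Centring moved it by over 0.1 in 4, to 0.11 for eye against day 7, -0.218 for race on day 1, -0.185 for the second step and -0.11 for distal against proximal forewing. A gain alone could not be fitted where a group had no array at that gain, which left out race on day 3, the first step and, at gain 460, eye against day 1, hindwing against forewing and race on days 5 and 7 and in the second step.

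Leaving out each array in turn gave 35 to 61, 29 to 45 and 11 to 40 for the eye, 4 to 9, 4 to 7, 6 to 18 and 1 to 3 for race, 2 to 12 and 2 to 10 for the steps, 0 to 1 for distal against proximal forewing, 0 for hindwing against forewing and 125 to 140 members by the rule. For the first step, 22 single arrays moved the count by over 1.5 times, to 12 without plesseni proximal forewing day 5 replicate 62, to 10 without plesseni distal forewing day 5 replicate 86 and to 2 or 3 without the others (replicates 9, 10, 11, 12, 14, 17, 18, 35, 36, 39, 40, 56, 57, 63, 64, 65, 83, 84, 87 and 88). For the second, it was 10 without replicate 62, 6 without replicate 86 and 5 without malleti distal forewing day 5 replicate 41. For race on day 7, replicates 19, 20, 21, 43, 44, 48, 72, 91, 92, 93, 95 and 96 each left 1. The rule itself gave 137 features on centred values (121 shared), 138 and 150 at each gain (114 and 96 shared), and 139 without the doubted arrays (124 shared).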
